A study of Mus musculus with 24 samples.

Results

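Fgf21 and Tsku encode a pair of hepatokines, proteins that liver cells secrete and that act on other organs. They were followed in RNA-seq data from liver of 2 inbred mouse strains, C57BL/6J and A/J, on 3 diets. Mice ate high fat diet for 16 weeks (HF), high fat diet for 8 weeks followed by control diet for 8 weeks (Reversal), or control diet for 16 weeks (Control). Each strain and diet gave 2 RNA libraries, 12 in all. The groups differ by strain and diet alone as far as the labels say, which give neither sex nor age. The labels do not tie the 2 libraries of a group to separate mice, and the spread behind the p-values may therefore be technical. Both genes were chosen by their adjusted p and fold changes in these same tables, and their rows were taken by gene symbol: every row of the authors' deposited tables whose RefSeq transcript belongs to Fgf21 or Tsku was kept. These are 2 of the 877 genes in the tables, and 6 of the 1380 transcript rows. Fgf21 had 1 row in each strain, Tsku had 4 rows in C57BL/6J, and Tsku had no row in A/J.

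FGF21 is a circulating member of the fibroblast growth factor family. It acts on adipose tissue and brain through FGF receptors that are bound to the co-receptor beta-klotho. In liver its gene is known to be induced by the fatty acid receptor PPAR alpha during fasting, and by the transcription factor ATF4 when amino acids are short or protein folding fails. Tsukushi, the product of Tsku, is a secreted protein of the small leucine-rich proteoglycan family. It was first described in vertebrate embryos, where it binds BMP, TGF beta and Wnt pathway ligands, and in mice it is released by the liver and enters the circulation.

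The upstream sequences of both genes are shown because Fgf21 has known transcriptional inputs whose motifs can be searched in it, and Tsku is set beside it. They come from RefSeq on GRCm38.p6 and hold the 250 bases before the annotated start. They are printed 5′ to 3′ on the gene's own strand, the minus strand of chromosome 7 for both genes, at chr7:45615491-45615740 for Fgf21 and chr7:98361329-98361578 for Tsku. Capitals mark matches to the motifs named after the sequences.
Fgf21: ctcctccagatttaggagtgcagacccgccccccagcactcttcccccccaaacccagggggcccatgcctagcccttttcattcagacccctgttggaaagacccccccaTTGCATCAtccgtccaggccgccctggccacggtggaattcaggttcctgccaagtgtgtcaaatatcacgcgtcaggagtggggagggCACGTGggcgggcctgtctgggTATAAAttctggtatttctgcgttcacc
Tsku: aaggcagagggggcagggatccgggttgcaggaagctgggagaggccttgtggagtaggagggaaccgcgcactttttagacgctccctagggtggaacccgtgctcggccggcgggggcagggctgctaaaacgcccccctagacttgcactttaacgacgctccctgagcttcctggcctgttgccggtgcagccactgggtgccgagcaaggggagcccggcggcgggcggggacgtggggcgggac

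Motifs were searched on both strands as exact letters. They were chosen after the sequences were seen, so the matches and the shares beside them are a description only. The Fgf21 window held TTGCATCA, a form of the element bound by ATF4 with a C/EBP partner, at positions -139 to -132 from the start. This motif was in 0.791% of the 32851 windows of the same length. It also held the palindromic E-box CACGTG at -50 to -45, found in 6.02% of windows, and TATAAA at -28 to -23, found in 12.4%. None of these letters was in the printed Tsku window, nor in a second RefSeq window that overlaps it. A direct repeat of the nuclear receptor half-site AGGTCA with 1 base between its copies and the D-box TTATGTAA had no match in the windows of either gene, and they were in 0.0335% and 0.819% of all windows. These matches describe letters and show no binding. Of 21 listed PPAR alpha targets with a window 0 held the exact direct repeat, so its absence says little about looser forms of it. Guanine and cytosine made up 59.6% of the Fgf21 window and 68.0% of the Tsku window, against a median of 52.4% over all windows. Of 21 listed ATF4 targets with a window, 5 held TTGCATCA (Atf3, Chac1, Nupr1, Slc7a11 and Vldlr), which is 23.8%, against 0.918% of 27025 genes. Of these 5 Chac1 alone had a row, in C57BL/6J and with a positive fold change. Of the 4 genes nearest to Fgf21 in C57BL/6J that had a window 0 held it, and of 21 PPAR alpha targets 0 did.

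The tables give for each transcript a base mean (the mean of normalized counts over the 6 libraries of the strain), a log2 fold change with its standard error, and a likelihood ratio statistic over all 3 diets. They list only transcripts with an adjusted p under 0.05. The fold change compares 2 of the 3 diets, and the tables do not say which. These are called here the numerator diet and the denominator diet, and the diet outside the contrast is called the third diet. Which of HF, Reversal and Control each one is cannot be told, nor whether both tables use the same pair. No value per library was used, since the tables hold none. At this threshold 3.46% of the transcripts tested were called in C57BL/6J and 3.39% in A/J. At an adjusted p under 0.01, which all 6 member rows passed, the shares were 1.89% and 2.17%. Because the members were chosen with these values known, their values are given as a description without a test of their own.

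In C57BL/6J liver Fgf21 had one of the lowest fold changes among the listed transcripts of the strain. Its base mean was 442 normalized counts and its log2 fold change -2.97 ± 0.32 (SE) in the authors' deposited table. This is a level 7.83-fold lower in the numerator than in the denominator diet, with a 95% interval of -3.59 to -2.35 on the log2 scale. Every value after ± is an SE on the log2 scale. The likelihood ratio statistic over the 3 diets was 84.6, the fifteenth in order among 681 transcripts, with an adjusted p of 5.68e-16 from DESeq2 in the authors' deposited table. A lower fold change was listed for 2 genes, the microRNA gene Mir1933 at -8.64 ± 1.91 and the homeobox gene Sebox at -3.04 ± 0.45 in the authors' deposited table. Both had far fewer counts than Fgf21 in that table, with base means of 70.6 and 55.5.

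In C57BL/6J liver Tsku moved with the same sign and a smaller fold, but with a larger statistic. Its 4 transcripts had base means of 1948 to 2114 normalized counts and log2 fold changes of -1.10 to -1.07, each with an SE of 0.18, in the authors' deposited table. This corresponds to a level 2.10-fold to 2.15-fold lower in the numerator than in the denominator diet. A lower fold change than that of Tsku was listed for 19 genes, Fgf21 among them. The statistics of 125 to 130 took places 2 to 5 among the 681 transcripts, with adjusted p from 4.74e-25 to 3.01e-24 from DESeq2 in the authors' deposited table. RefSeq holds 4 curated transcripts of the gene and all 4 were listed. Their base means differed by at most 8.53%, and reads of shared exons can count for each of them, so they are read as 1 measurement of the gene and not as 4. In bulk liver, fewer cells that express a gene and less RNA per cell cannot be told apart.

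In A/J liver Fgf21 differed between the diets with the opposite sign in the listed contrast. Its base mean was 126 normalized counts and its log2 fold change 0.65 ± 0.32 in the authors' deposited table, with a 95% interval of 0.03 to 1.27. A higher fold change was listed for 79 A/J genes, among them the pseudogene Cyp4b1-ps2 at 5.11 ± 0.23, Cyp4a14 at 3.79 ± 0.59, Xlr3a at 3.28 ± 0.46 and Xlr3c at 3.13 ± 0.54 in the authors' deposited table. The statistic was 26.5, place 214 among 699 transcripts, with an adjusted p of 1.73e-04 from DESeq2 in the authors' deposited table. The libraries of each strain were normalized in a table of their own, so the base means of 442 in C57BL/6J and 126 in A/J are not compared. The difference in fold change between the strains was not tested. Tsku had no row in the A/J table. The lowest statistic listed there is 12.8, so a Tsku transcript that was tested would have had a lower one. Whether it was tested is not known.

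The part of the statistic that lies in the listed contrast differed between the genes. The squared ratio of fold change to SE, set against the statistic, came to 104% for Fgf21 in C57BL/6J. This ratio is only approximately a part of the statistic and can pass 100%, as it did for 36 transcripts in C57BL/6J and for 28 in A/J. It came to 27.4% to 28.5% for the Tsku transcripts and to 15.8% for Fgf21 in A/J. Over all listed genes the median was 35.9% in C57BL/6J and 20.5% in A/J. For Tsku, and for Fgf21 in A/J, most of the statistic lay outside the listed contrast.

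The levels behind these numbers can be worked back. With 2 libraries per diet, equal size factors and a negative binomial model, the base mean, fold change, SE and statistic of a transcript fix the mean of each diet up to 2 solutions, one with the third diet higher and one with it lower. A solution existed for 1379 of the 1380 listed transcripts. The tables cannot say which of the 2 solutions holds. Each level below is such a back-calculated mean in normalized counts and not a measured library.

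For Fgf21 in C57BL/6J the levels were 86.1 in the numerator diet, 674 in the denominator diet and 567 in the third diet, or 115, 897 and 316. Their standard errors were 0.21 to 0.24 on the log2 scale. In both solutions the numerator diet was the lowest, the denominator diet the highest, and the third diet lay between them. The third diet exceeded the numerator diet by 2.72 ± 0.32 (SE) or 1.46 ± 0.32 on the log2 scale, that is 6.59-fold or 2.76-fold. Against the denominator diet it stood at -0.25 ± 0.30 or -1.50 ± 0.31, so that in the first solution the third and the denominator diet did not differ beyond their error. That solution depends on the model: in a normal approximation the third diet moved to the midpoint of the other two, 0 from it on the log2 scale in place of 1.24. In C57BL/6J Fgf21 RNA was thus lowest in the numerator diet and higher in both others in either solution. The solutions differ on the third diet: in the first it lay near the denominator diet, in the second -0.02 from the midpoint on the log2 scale. Among the 461 listed C57BL/6J genes 117 (25.4%) had the third diet between the others in both solutions, and 315 (68.3%) had it outside them in both.

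For Tsku in C57BL/6J the levels fell on 3 separate steps. In the transcript with the smallest p they were 855 in the numerator, 1834 in the denominator and 3655 in the third diet, or 1740, 3734 and 870, with standard errors of 0.13 on the log2 scale. The other 3 transcripts gave 798 to 831, 1678 to 1763 and 3368 to 3520 in the first solution, and 1626 to 1689, 3418 to 3585 and 800 to 840 in the second. In the first solution the third diet stood above both others, by 2.10 ± 0.18 over the numerator diet and by 0.99 ± 0.18 over the denominator diet. In the second it stood below both, at 0.50 of the level in the numerator diet and -2.10 ± 0.18 on the log2 scale from the denominator diet. The highest diet exceeded the lowest 4.28-fold or 4.29-fold, about the same in both, while the listed contrast alone gives 2.15-fold.

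For Fgf21 in A/J the levels were 108 in the numerator diet, 68.9 in the denominator diet and 202 in the third diet, or 195, 125 and 59.4, with standard errors of 0.21 to 0.25 on the log2 scale. The third diet was the highest in the first solution and the lowest in the second. It differed from the numerator diet by 0.91 ± 0.30 or -1.72 ± 0.33, and from the denominator diet by 1.55 ± 0.31 or -1.07 ± 0.33. The third diet lay outside the other two in both solutions in 406 of 491 listed A/J genes (82.7%). The order of the diets in A/J was therefore not that of C57BL/6J if both tables use the same pair, which is not known.

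**Figure D1:**
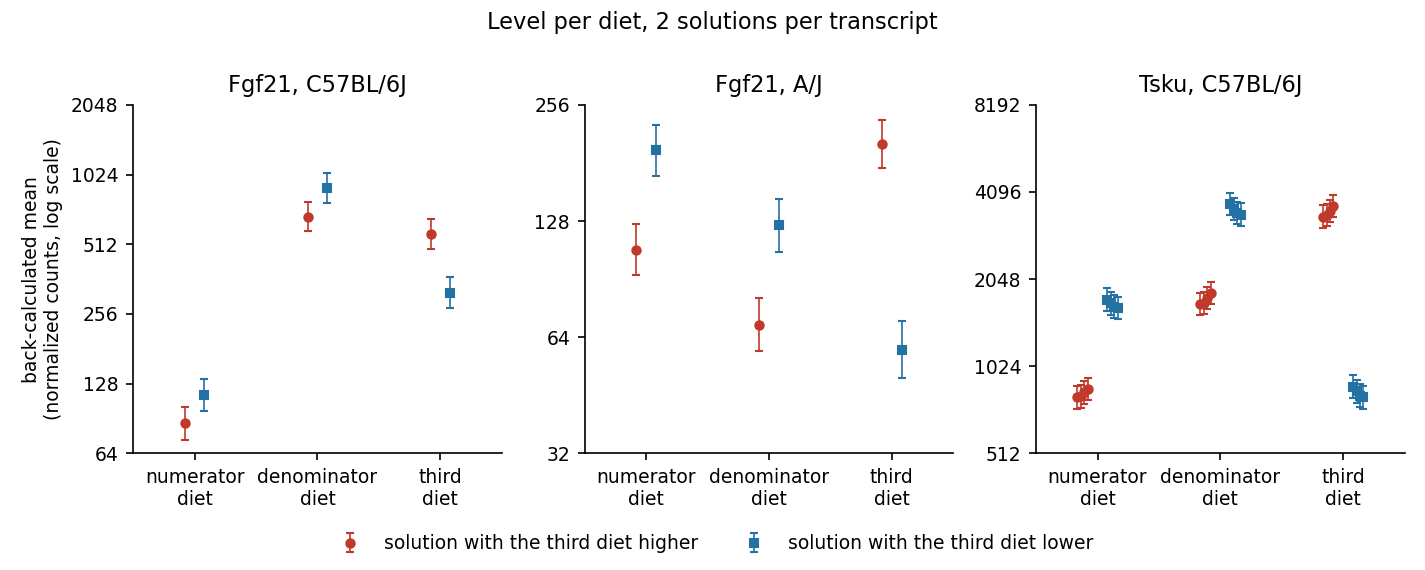
Back-calculated mean per diet on a log scale, in normalized counts, for Fgf21 in C57BL/6J, Fgf21 in A/J and the 4 Tsku transcripts in C57BL/6J, with bars of 1 SE. In C57BL/6J the numerator diet of Fgf21 lies lowest at 86.1 or 115 in either solution, while the third diet of Tsku is the highest or the lowest.

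The span over the diets, the highest mean over the lowest, puts both genes in the tail of the listed genes. In C57BL/6J it was 7.83-fold for Fgf21, the eleventh of 461 genes, and at least 4.28-fold for Tsku, the 23rd when the smaller of both solutions is taken. The median of the listed genes was 1.61-fold, and 25 genes exceeded 4-fold. In A/J the span of Fgf21 was 2.94-fold or 3.29-fold, place 55 of 490 genes, against a median of 1.72-fold. Both genes were chosen by their adjusted p and fold changes, and the span is worked back from these same rows. For Fgf21 in C57BL/6J it is the listed fold change itself. These places therefore describe the choice and are no separate result.

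**Figure D2:**
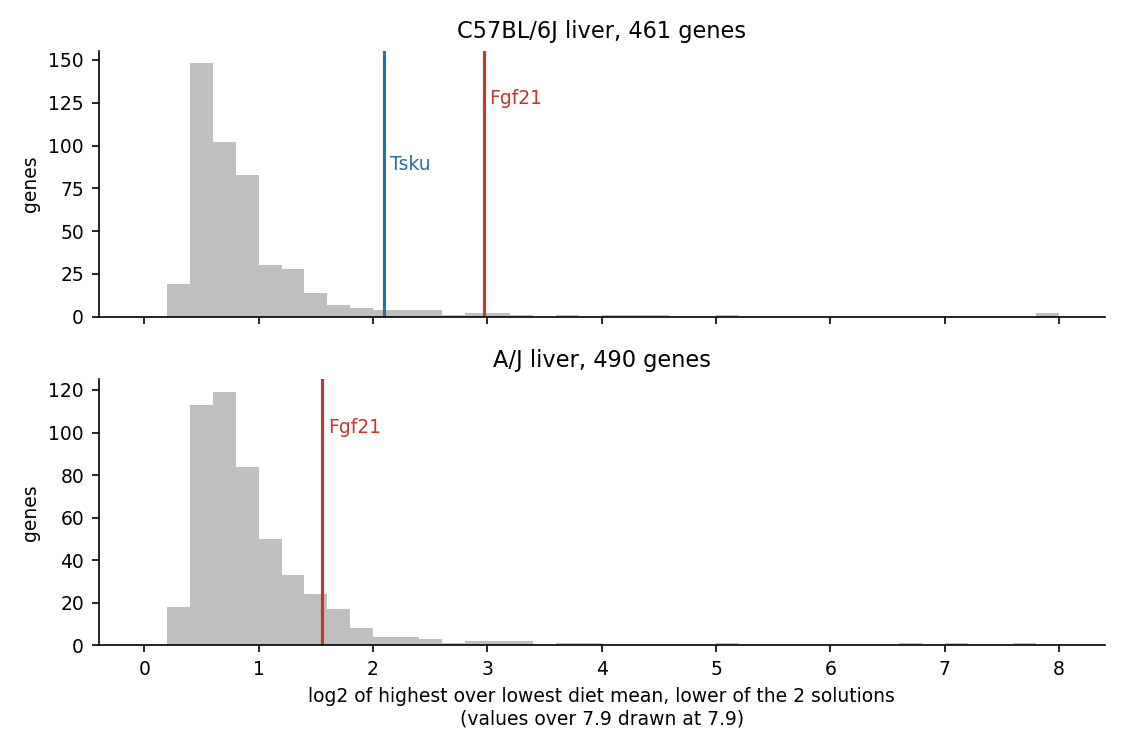
Number of listed genes by log2 of the highest over the lowest back-calculated diet mean, the smaller of both solutions, in C57BL/6J and A/J. Lines mark Fgf21 (7.83-fold in C57BL/6J, 2.94-fold in A/J) and Tsku (4.28-fold), to the right of most genes. Both genes were chosen by values that enter the span.

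Genes most like Fgf21 were sought by distance over the fold change and the contrast's part of the statistic, each divided by its SD over the listed genes. In C57BL/6J the nearest was Gdf15, which encodes another stress-induced hormone secreted by liver, at -2.57 ± 0.35 and 96.3% in the authors' deposited table (distance 0.49). Its levels were 87.2 in the numerator diet, 517 in the denominator diet and 497 in the third diet, or 123, 733 and 245. They followed the same order as Fgf21 in both solutions. The values by which Gdf15 was picked also enter these levels, so the shared order is no separate likeness. Next came Mmp12, a macrophage metalloelastase gene, Zbtb7c and the asparagine synthetase gene Asns, with -2.38 ± 0.70, -2.18 ± 0.65 and -2.04 ± 0.47 in the authors' deposited table. Asns had 21.2, 87.0 and 65.3, or 24.3, 99.7 and 49.5 normalized counts in the numerator, the denominator and the third diet. Sebox was the fifth. In Mmp12 and Zbtb7c the third diet passed the denominator diet in the solution with the third diet higher. The likeness rests on 2 numbers over 6 libraries, and by another pair of numbers, the ratio to SE and the rest of the statistic, Gdf15 was the only one of the 5 that stayed.

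**Figure D3:**
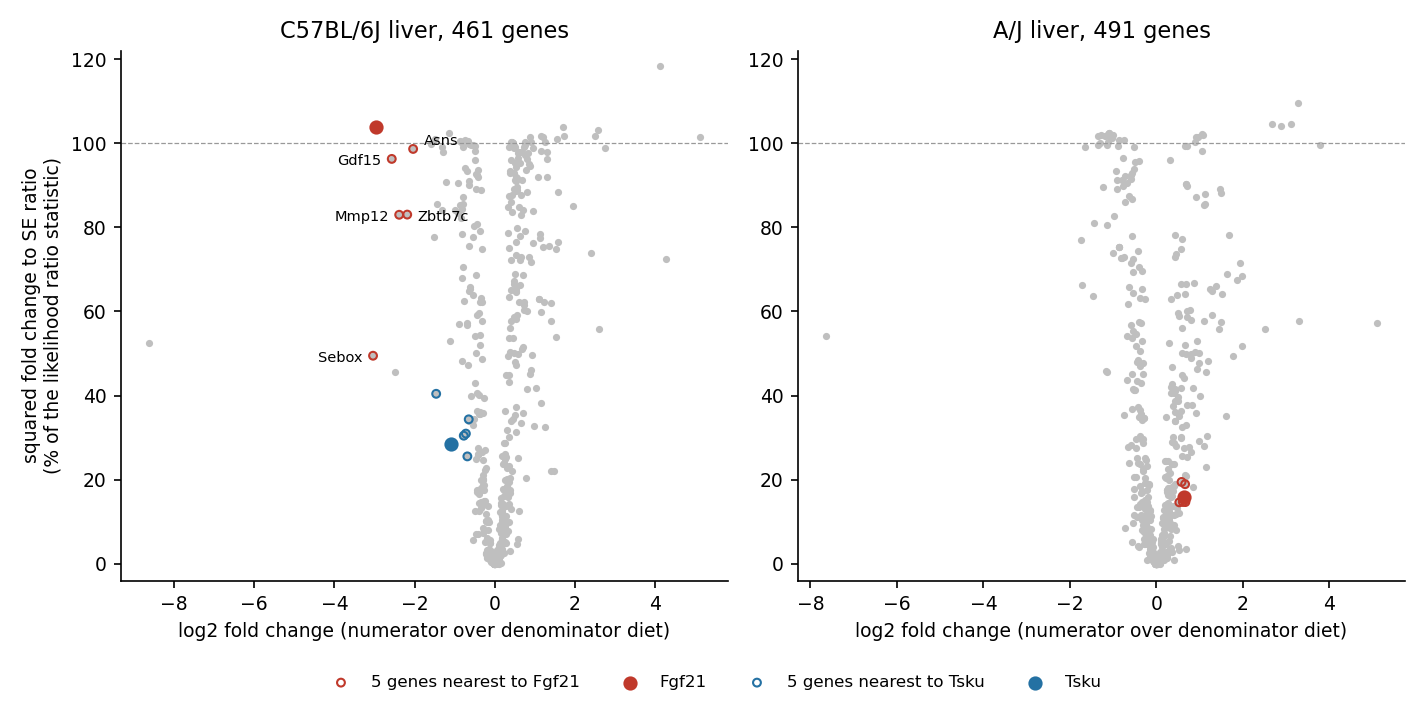
Log2 fold change of the numerator over the denominator diet (x axis) against the squared ratio of fold change to SE as a percentage of the likelihood ratio statistic (y axis), 1 point per listed gene in C57BL/6J and A/J. Fgf21 stands at -2.97 and 104% in C57BL/6J with Gdf15, Mmp12, Zbtb7c and Asns near it, and at 0.65 and 15.8% in A/J. Tsku stands at -1.10 and 28.5% in C57BL/6J.

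**Figure D4:**
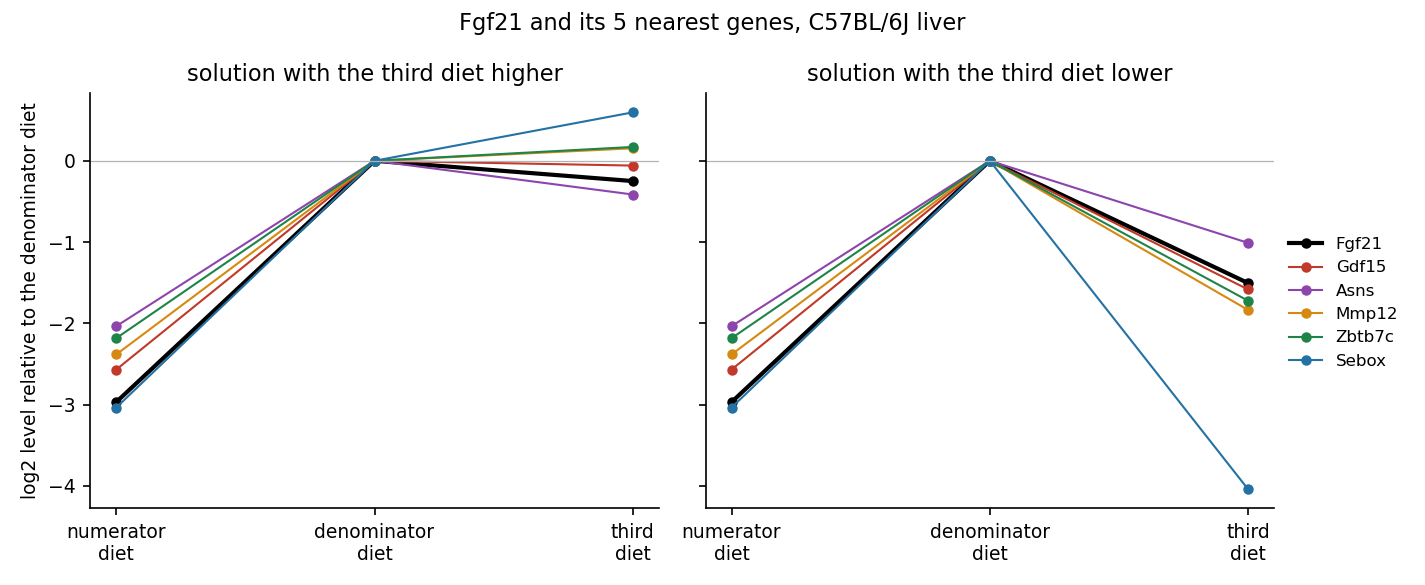
Log2 of the back-calculated level relative to the denominator diet for Fgf21 and its 5 nearest genes in C57BL/6J, 1 panel per solution, with lines that link the values of a gene and stand for no order of diets. Fgf21, Gdf15 and Asns keep the third diet between the other two in both panels, and Sebox in neither. The values used to pick these genes also enter the levels drawn.

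The genes nearest to Tsku in C57BL/6J were Atg16l2 at -0.77 ± 0.21, Ptgfrn at -0.72 ± 0.35, the isoprenoid synthesis gene Idi1 at -0.68 ± 0.22, the mitochondrial folate enzyme gene Aldh1l2 at -1.46 ± 0.61 and Synpo at -0.65 ± 0.27 in the authors' deposited table. None of these 5 had a statistic near that of Tsku, and by the other pair of numbers none was among the nearest. Nearest to Fgf21 in A/J were the cell cycle inhibitor gene Cdkn1a at 0.67 ± 0.37, Dntt at 0.61 ± 0.41, the lipase inhibitor gene G0s2 at 0.67 ± 0.25, Cerkl at 0.58 ± 0.23 and Spon2 at 0.53 ± 0.16 in the authors' deposited table. By the other pair none of these remained.

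The receptors of FGF21 had no row. Of 7 genes of FGF receptors and co-receptors, Klb for beta-klotho among them, 0 were listed in C57BL/6J and 0 in A/J. Of 11 other FGF ligands 1 was listed, Fgf1 in C57BL/6J at 0.18 ± 0.11 in the authors' deposited table. Of 15 feedback and target genes of receptor tyrosine kinase signalling 2 were listed in C57BL/6J and 0 in A/J: Errfi1, whose product restrains EGF receptor signalling, at 1.73 ± 0.19, and Spry4, an inhibitor of growth factor signalling, at 1.29 ± 0.33 in the authors' deposited table. Counts of list members are shares of the list as written, since genes without a row may not have been tested. They stand beside shares of transcripts called with a negative fold change of 1.36% in C57BL/6J and 1.71% in A/J, and with a positive one of 2.10% and 1.69%.

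Among 23 transcriptional regulators of Fgf21 4 were listed in C57BL/6J, all with a negative sign, though the 95% interval left out 0 for 1 of them, Hnf4a. They were the nuclear receptor genes Hnf4a at -0.35 ± 0.10, Nr2c2 at -0.28 ± 0.15 and Rora at -0.24 ± 0.13, and the repressor gene Nfil3 at -0.01 ± 0.20 in the authors' deposited table. The A/J table listed 2, the clock repressor gene Nr1d2 at 0.02 ± 0.14 and the growth hormone signalling gene Stat5b at -0.11 ± 0.11 in the authors' deposited table. Ppara and Atf4 had no row in either strain. Beside these counts of genes stand 3.46% of all transcripts called in C57BL/6J and 3.39% in A/J.

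Targets of ATF4 and of PPAR alpha, both known inputs of Fgf21, were followed as lists. Of all transcripts tested 3.46% were called in C57BL/6J and 3.39% in A/J, and 1.69% with a positive fold change in A/J. These shares count transcripts, while the lists count genes. Of 25 ATF4 targets and amino acid response genes 6 (24.0%) were called in C57BL/6J and 1 of 25 in A/J. The 6 split by sign: Gdf15, Asns and Aldh1l2 were negative like Fgf21, while Cebpb, a bZIP transcription factor gene, had 0.90 ± 0.18, Chac1, a glutathione-degrading enzyme gene, had 1.16 ± 0.43, and Cth, which acts in cysteine synthesis, had 0.68 ± 0.19 in the authors' deposited table. The 1 called in A/J was Cth at -0.43 ± 0.14 in the authors' deposited table. Of 29 PPAR alpha targets 2 (6.90%) were called in C57BL/6J and 15 (51.7%) in A/J, and those 15 were all positive like Fgf21 in A/J. The median fold change of these 15 was 0.84, against 0.01 over all listed A/J genes. For 13 of them the 95% interval left out 0. The 5 with the smallest adjusted p in A/J were the fatty acid hydroxylase genes Cyp4a10 at 1.63 ± 0.11 and Cyp4a32 at 1.25 ± 0.16, the pantetheinase gene Vnn1 at 2.51 ± 0.27, the lipid droplet gene Plin2 at 0.47 ± 0.12 and the thioesterase gene Acot2 at 0.93 ± 0.18 in the authors' deposited table. Some Cyp4a genes are near-identical copies, so their counts are uncertain. In C57BL/6J the 2 called were Vnn1 at 0.15 ± 0.20 and Acot4 at 0.19 ± 0.18 in the authors' deposited table, and neither interval left out 0. No difference between the strains in these counts was tested.

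Other secreted liver proteins with hormone-like roles were listed in 11 of 48 cases in C57BL/6J (22.9%) and 6 of 48 in A/J (12.5%). Of all transcripts tested 3.46% and 3.39% were called, a share of transcripts and not of genes. In C57BL/6J 4 were negative and 7 positive, with a median of 0.10 against 0.12 over all listed genes. The largest statistics were those of Igfbp1 and Inhbe, with fold changes near 0. Igfbp1, which binds insulin-like growth factors, had 0.37 ± 0.26 with a statistic of 71.9, and Inhbe, an activin subunit gene, had -0.07 ± 0.15 with 61.1 in the authors' deposited table. The levels were 777, 600 and 2330, or 1869, 1444 and 394, for Igfbp1 in the numerator, the denominator and the third diet, and 1816, 1901 and 3706, or 2938, 3075 and 1410, for Inhbe. In both genes, as in Tsku, the third diet lay outside the other two. Hamp2, a gene of the hepcidin family, had 0.91 ± 0.15 and the acute phase gene Orm1 0.20 ± 0.10 in the authors' deposited table. Of the 6 in A/J 4 were negative and 2 positive, led by the lipase inhibitor genes Angptl8 at -1.34 ± 0.14 and Angptl4 at 1.13 ± 0.15, with Enho at -0.59 ± 0.19 and Serpina12 at -0.47 ± 0.13 in the authors' deposited table. Gdf15 counts in this list and in that of ATF4 targets, and Angptl4 in this one and in that of PPAR alpha targets.

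**Figure D5:**
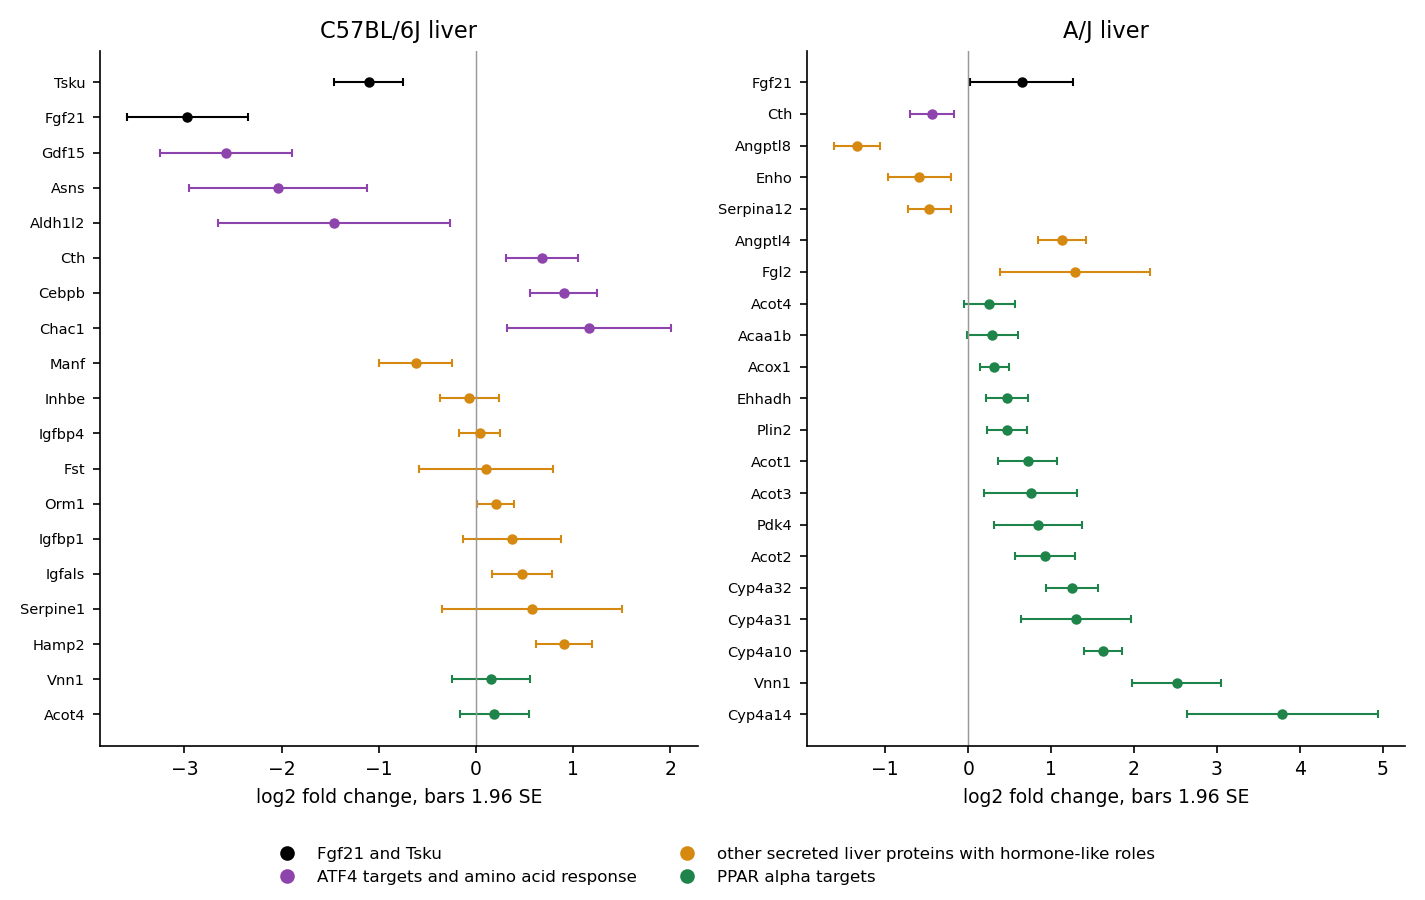
Log2 fold change with 95% interval bars for Fgf21 and Tsku and for genes of 3 lists that had a row in C57BL/6J and A/J, each gene drawn once. In C57BL/6J Fgf21 stands at -2.97. Of the ATF4 targets there, Gdf15 at -2.57, Asns at -2.04 and Aldh1l2 at -1.46 were negative. Cebpb at 0.90, Chac1 at 1.16 and Cth at 0.68 were positive. In A/J Fgf21 at 0.65 lies among PPAR alpha targets, which were all positive.

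The rows for the family and the partners of Tsku stand beside 3.46% of all transcripts called in C57BL/6J and 3.39% in A/J. None of 16 other small leucine-rich proteoglycans was listed in either strain. Of 31 genes of TGF beta, BMP and Wnt signalling 3 (9.68%) were listed in C57BL/6J. These were the BMP target gene Id3 at 0.89 ± 0.23, the receptor gene Tgfbr1 at -0.65 ± 0.18 and the Wnt co-receptor gene Lrp6 at -0.05 ± 0.11 in the authors' deposited table. Where Tsku had no row, in A/J, 6 of the 31 were listed (19.4%) and all were negative, with a median of -0.30. The 95% interval left out 0 for 2 of these 6, Axin2 and Id3. They were the feedback inhibitor genes Axin2 at -0.65 ± 0.22 and Smad7 at -0.29 ± 0.18, the BMP targets Id3 at -0.69 ± 0.25 and Id2 at -0.32 ± 0.19, Tbx3 at -0.28 ± 0.23 and Lrp5 at -0.02 ± 0.11 in the authors' deposited table. Of 9 thyroid hormone response genes 2 were listed in each strain. In C57BL/6J they were Me1, the malic enzyme gene, at 0.00 ± 0.15 with a statistic of 52.3, and Bcl3 at -0.02 ± 0.17, and in A/J Gpd2 at 0.29 ± 0.12 and Bcl3 at -0.67 ± 0.18 in the authors' deposited table. Of 15 genes of cholesterol efflux and high density lipoprotein 4 had a row in C57BL/6J, against 2 in A/J. Those of C57BL/6J included the sterol exporter genes Abcg5 at 0.71 ± 0.11 and Abcg8 at 0.65 ± 0.12 and the apolipoprotein gene Apoa1 at -0.44 ± 0.16 in the authors' deposited table. The A/J genes were the phospholipid transfer gene Pltp at 0.46 ± 0.20 and the endothelial lipase gene Lipg at 0.41 ± 0.24 in the authors' deposited table.

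The marker lists used here are short. Of all transcripts 3.46% were called in C57BL/6J and 3.39% in A/J, so a short list without a row says little. In C57BL/6J no marker of macrophages (12 genes), lymphocytes (10), stellate cells (10), endothelium (9), cholangiocytes (7) or exocrine pancreas (12) was listed, and of 7 adipocyte markers only Cfd was, at 0.56 ± 0.41 in the authors' deposited table. For A/J the macrophage markers Marco and Cd5l were listed at 1.09 ± 0.41 and 0.40 ± 0.22 and the pancreas marker Cela1 at -0.67 ± 0.19 in the authors' deposited table, and no other gene of these lists. Immune genes outside the lists also had rows in A/J and were noticed after their values were seen. The back-calculated span over the diets was at least 1.90-fold for the Kupffer cell gene Cd163, and at least 2.54-fold, 2.47-fold and 3.08-fold for the MHC class II genes H2-Aa, H2-Ab1 and H2-Eb1. Cd163 also had a row in C57BL/6J, with a span of at least 1.76-fold. Of 10 hepatocyte markers 3 were listed in C57BL/6J, among them Apoa1 at a base mean of 202218, and 1 in A/J, Cps1 at 96337, in the authors' deposited table. Levels of markers without a row were not analysed here. The part of these cell types in the values of Fgf21 was not tested.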

How the data were processed

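RNA-seq of mouse liver was used. Per the submitters' processing notes, TopHat, Bowtie2 and DESeq2 were used with the mm9 build, in versions and roles that are not stated. Per the file headers, the base mean is the mean normalized signal over libraries that the authors computed with DESeq2, and the deposited log2 fold change and its SE are on the log2 scale. The deposited score is a likelihood ratio statistic: read as chi-square with 2 degrees of freedom, it returns the deposited p-value in every row. The number of transcripts tested, 19658 for C57BL/6J and 20591 for A/J, was worked out from p-values and their adjusted values as the authors list them. The sources used here do not give library depth. The labels' diet tag and treatment protocol differ on the weeks of control diet after high fat diet, and the protocol was followed.

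Transcripts were matched to symbols through RefSeq of GRCm38.p6, used for names, neighbours and upstream sequence: 675 of 681 and 690 of 699 matched. The transcript with the smallest p stood for a gene. Diet means were solved from a negative binomial likelihood with 1 dispersion per transcript and 2 libraries per diet, a step chosen after the data were seen. It was tried on counts simulated from the same model with unequal size factors, where the nearer of the 2 solutions was scored. That trial cannot tell which solution holds, nor whether the authors' values follow the model. The members and the 11 pathway and 8 marker lists were chosen with earlier results of these data known, and the motifs after the sequences were seen. Of 296 list genes 295 have a RefSeq symbol. Named genes are the members, up to 5 genes of each list with the smallest adjusted p (Cth in C57BL/6J and Id2 in A/J, each the sixth of its list, were added to complete it), up to 5 with a fold change beyond a member's, and the 5 nearest to it. A few genes that the rule names are not reported here. Peak files of the 12 chromatin libraries were left out, since placing them at genes needs an mm9 annotation, not used here. Python 3.11.15, numpy 2.4.6, pandas 2.3.3, scipy 1.17.1 and matplotlib 3.10.9 were used.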

Additional observations from a re-analysis of the deposited data

How the results depend on the processing

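The fold changes of Fgf21 and Tsku and the part of the statistic in the contrast did not change with the transcript of highest base mean, which is the one reported. With a size factor of 0.7 or 1.4 in both libraries of 1 diet, a choice made after the data were seen, the third diet of Fgf21 in C57BL/6J stood 1.14 to 1.29 or -0.08 to 0.08 from the midpoint of the pair on the log2 scale, that of Tsku 1.54 to 1.55 or -1.56 to -1.54, and that of Fgf21 in A/J 1.20 to 1.25 or -1.45 to -1.36. In a normal approximation the upper solution of Fgf21 in C57BL/6J, at 1.24, moved to 0, since the squared ratio passes the statistic. At an adjusted p threshold of 0.01, 372 transcripts (1.89%) were left in C57BL/6J and 447 (2.17%) in A/J. In C57BL/6J the list counts then became 1 for kinase signalling feedback, 2 for regulators of Fgf21, 1 for PPAR alpha targets, 0 for TGF beta, BMP and Wnt signalling, 2 for cholesterol efflux, 4 for ATF4 targets and 8 for other secreted proteins. In A/J they became 1 for regulators of Fgf21, 1 for thyroid hormone response, 13 for PPAR alpha targets and 4 for other secreted proteins. Counting only fold changes whose 95% interval leaves out 0, the C57BL/6J counts were 0 for FGF ligands, 1 for regulators, 0 for PPAR alpha targets, 6 for other secreted proteins and 0 for thyroid hormone response. The A/J counts were 0 for regulators, 2 for TGF beta, BMP and Wnt signalling and 1 for cholesterol efflux. These follow from the stricter rule itself. Of the 5 genes nearest to Fgf21 in C57BL/6J 1 stayed with the other pair of numbers, and 0 did for Tsku and for Fgf21 in A/J. Leaving out libraries, edgeR with TMM and a filter on low counts were not run, since the tables hold no value per library. No paired analysis was possible because the columns carry no library or replicate number.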

Other observations

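Genes beside the members on chromosome 7 were looked up by order in RefSeq of GRCm38.p6. None of the 3 nearest protein-coding genes on either side of Fgf21 (Plekha4, Hsd17b14, Bcat2, Fut1, Izumo1 and Rasip1) and none of those beside Tsku (Omp, B3gnt6, Acer3, Gucy2d, Lrrc32 and Emsy) had a row in the C57BL/6J or the A/J table. With 3.46% and 3.39% of all transcripts called, an absence of rows among so few genes says little. Whether each was tested is not known.

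Of the 75 genes listed in both strains, 11 had, like Fgf21, a negative fold change in C57BL/6J and a positive one in A/J, 24 had the reverse and 40 had the same sign. Whether the fold changes of both strains compare the same pair of diets is not known, so a like or unlike sign describes the listed values only. Over the fold change and the contrast's part of the statistic in both strains, the gene nearest to Fgf21 was Zbtb7c, at -2.18 ± 0.65 in C57BL/6J and -0.51 ± 0.28 in A/J in the authors' deposited table, a distance of 1.91. It differed from Fgf21 in sign in A/J.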
